A study of Mus musculus with 2 samples.

Results

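Lpl, Fabp5, Fabp3, Plin2, Plin3 and Pltp carry lipid into cells, bind it there, coat its stores or move it between particles. They are described here in single microglia, the resident macrophages of the brain, taken from mice on cuprizone, a copper chelator that kills oligodendrocytes and demyelinates the corpus callosum. The genes were chosen by symbol, and all 6 symbols were found, once each, among the 27998 genes in the files. The data consist of 1 library of sorted microglia from the medial corpus callosum and 1 from the lateral corpus callosum, with no replicates. Both came from C57Bl6 mice with the genotype CX3CR1 that had received cuprizone for 4 weeks. The sources used here do not give the CX3CR1 allele, the number and age of the mice or the sort gate.

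Microglia that clear myelin debris take up large amounts of lipid, which they break down, pass on through lipoproteins or store in droplets. Lipoprotein lipase, the product of Lpl, is a secreted enzyme that frees fatty acids from the triglycerides of lipoproteins. Fatty acid-binding proteins carry fatty acids through the cytosol, perilipins coat lipid droplets and control access of lipases to them, and phospholipid transfer protein moves phospholipids between lipoproteins. Lpl and Fabp5 are widely used as markers of microglia that respond to damage or phagocytose myelin.

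Cells were barcodes with at least 2400 unique molecular identifiers (UMIs, counts of distinct captured transcripts) and at most 10% mitochondrial UMIs. There were 2131 medial cells, with a median of 10732 UMIs, and 2308 lateral cells, with a median of 9694 UMIs. The libraries shared 7 cell barcodes, where 6.67 would fall together by chance. All 10 microglial markers on the list were measured, at 106 UMIs per 10000 in medial and 110 per 10000 in lateral cells. The lists for other cell types stood at 1.29 per 10000 or less in either library. The dendritic cell list, at 1.29 in medial and 1.16 in lateral cells, includes Siglech, which microglia also express. The border macrophage list stood at 0.468 and 0.358 per 10000, with 2 of 7 genes measured, both higher in medial cells past a fold of 1.2, and with Cd163 and Lyve1 at 0 in both libraries. The adipocyte list, which could also bring Lpl and perilipins, stood at 0.0107 and 0.00651 per 10000, with Adipoq at 0 in both libraries.

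Reads of 57 bases can only be assigned to these genes where their transcripts differ from others. In GENCODE vM21 on GRCm38, Lpl lies on chromosome 8 at 68880491 to 68907448 on the plus strand, and Fabp5 on chromosome 3 at 10012548 to 10016607, also plus. Fabp3 lies on chromosome 4 at 130308595 to 130315463 on the plus strand, and Plin2 on the same chromosome at 86648386 to 86670060 on the minus strand. Plin3 spans 56277476 to 56292873 on chromosome 17 and Pltp 164839518 to 164857711 on chromosome 2, both on the minus strand. The last 500 transcript bases, where a 3′ assay reads most, held no 57-base window shared with another gene for 5 of the 6 genes, Fabp5 included, which has pseudogenes. For Fabp3, 25.2% of these windows also occur in the pseudogene Fabp3-ps1, so some Fabp3 reads could have been lost or shared.

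The promoters of Plin2 and Pltp are shown because these genes varied with Apoe across cells, though weakly. Pearson's r of log counts with Apoe at 4000 UMIs per cell was 0.11 in medial and 0.18 in lateral cells for Plin2. For Pltp it was 0.093 and 0.081, where only 2.12% of medial and 1.91% of lateral cells had a Pltp UMI. Plin3 was at 0.0018 and 0.084 and Fabp3 at -0.023 and 0.052, and their promoters are not shown. Fabp5, at 0.095 and 0.14, has no entry in the promoter table. Both promoters shown come from the RefSeq table for GRCm38.p6, which held 4 of the 6 genes, and run from 250 bases before to 50 after the start. Plin2 is chr4:86670010-86670309 and Pltp is chr2:164857659-164857958, both on the minus strand. Capitals mark every match, on either strand, to the 7 motifs searched.
Plin2: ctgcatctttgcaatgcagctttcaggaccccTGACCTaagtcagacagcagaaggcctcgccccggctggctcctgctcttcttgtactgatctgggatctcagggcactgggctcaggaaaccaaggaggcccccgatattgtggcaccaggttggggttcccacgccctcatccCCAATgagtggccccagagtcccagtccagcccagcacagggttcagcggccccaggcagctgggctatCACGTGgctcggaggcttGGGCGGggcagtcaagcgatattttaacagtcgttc
Pltp: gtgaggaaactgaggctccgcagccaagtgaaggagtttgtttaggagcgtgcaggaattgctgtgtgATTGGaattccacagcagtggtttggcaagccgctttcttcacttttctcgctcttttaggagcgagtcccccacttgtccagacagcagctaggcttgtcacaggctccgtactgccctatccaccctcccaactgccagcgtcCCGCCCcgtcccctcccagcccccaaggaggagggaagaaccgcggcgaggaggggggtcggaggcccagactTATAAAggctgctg
The nuclear receptor motif AGGTCA occurs in 16.3% of the 32851 promoters in the table and, as TGACCT, in that of Plin2 alone among the 4 genes. The E-box CACGTG occurs in 7.15% of promoters, and the hypoxia response core ACGTG, which overlaps it, in 19.6%; Plin2 holds both, at a match that begins 4 bases before its start and spans it. The AP-1 motif TGANTCA (7.81% of promoters) was found in none of the 4. The NF-Y box CCAAT (37.4%) and the GC box GGGCGG (35.7%) were found in Plin2, Plin3 and Pltp. The TATA box TATAAA (13.6%) was found in Pltp, after its start. Fabp3 held no match to any of the 7 motifs. A match is a description of the letters and not of binding.

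Of the 6 genes, Lpl had the ratio farthest from 1 between the regions, and it was lower in medial microglia. With 1 library per region there is no test of a regional difference. Intervals here are 95% intervals that cover counting error only, and not the variation between cells or between libraries. A gene was counted as past the fold where its level in counts per 1000000 UMIs (CPM) differed by more than 1.2-fold. By that measure 1 of 6 genes was lower in medial cells and 0 were higher. Among the 9843 genes with at least 100 UMIs, 7.49% were lower and 7.42% higher past this fold, 14.9% in all, so a count of 1 in 6 is near the background. The median log2 ratio, medial over lateral, was -0.01 over the 6 genes and -0.04 over all 9843.

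**Figure D1:**
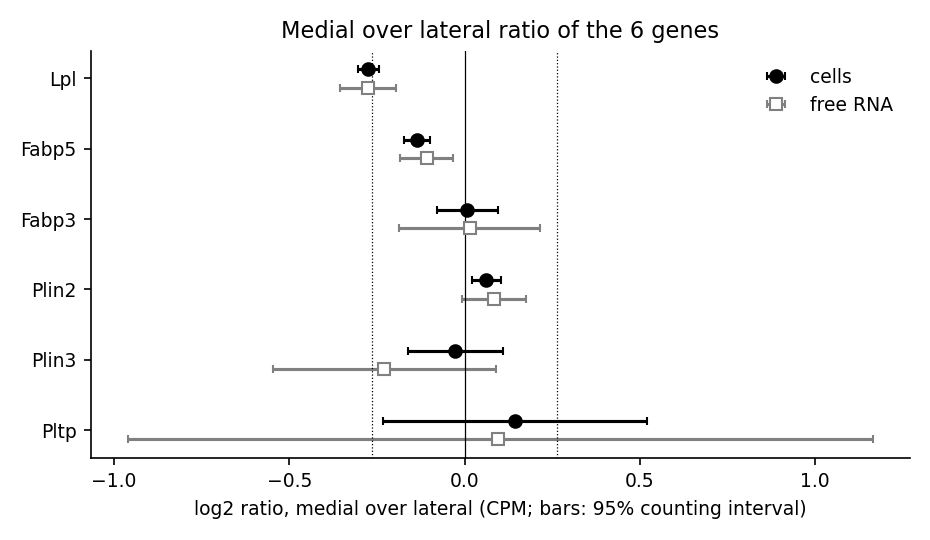
Log2 ratio of CPM, medial over lateral, for each gene in cells (filled circles) and in free RNA from barcodes with at most 100 UMIs (open squares); bars are 95% counting intervals and dotted lines mark a fold of 1.2. Lpl lies near -0.27 in both, and the interval of Pltp in cells runs from -0.23 to 0.52.

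Lpl had 16771 UMIs in medial and 19943 UMIs in lateral cells, or 715 CPM (705 to 726) and 865 CPM (853 to 877). The log2 ratio was -0.27 (-0.30 to -0.24), a linear ratio of 0.827. A smaller share of medial cells held the transcript: at 4000 UMIs per cell, 80.3% of 1983 medial cells and 87.5% of 2047 lateral cells had a UMI. Cells rich in Lpl were also less frequent in the medial library, where 3.18% had 10 or more UMIs at that depth, against 5.32% of lateral cells. Without thinning, the shares with a UMI were 93.1% in medial and 95% in lateral cells.

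Free RNA, measured in barcodes with at most 100 UMIs, carried the same contrast for Lpl. It held 541 CPM of Lpl in the medial and 655 CPM in the lateral library, a log2 ratio of -0.28 (-0.36 to -0.20). The part of free RNA in the difference between cells was not tested. Immediate early and dissociation genes, such as Fos and Jun, also moved between the libraries: 17 of 19 measured were higher in medial cells past the fold, at 80.5 and 63.1 UMIs per 10000 for the list. Where cells of both libraries were compared within 5 common ranges of that list, the mean log2 ratio of Lpl was -0.34. Within 5 common ranges of a damage-associated list, Lpl was lower in medial cells in each range, with log2 ratios between -0.44 and -0.18. With scaling by TMM the Lpl log2 ratio was -0.24 and with centring on the median gene -0.24, both short of a 1.2-fold difference.

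Fabp5, the epidermal-type fatty acid-binding protein, had 489 CPM (480 to 498) in medial and 537 CPM (528 to 547) in lateral cells. Its log2 ratio was -0.14 (-0.17 to -0.10), a smaller difference in the same direction as that of Lpl. At 4000 UMIs, 68.2% of medial and 72.7% of lateral cells had a Fabp5 UMI. Within common ranges of the damage-associated list the mean log2 ratio was -0.05. With cells of a cycling signature, defined below, left out, the log2 ratio was -0.21. Of the 20 cycling genes 11 were lower in medial cells past the fold; their part in the Fabp5 ratio, beyond that value without cycling cells, was not tested. Free RNA held more Fabp5 than cells did, with 636 CPM in the medial and 686 CPM in the lateral library.

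Fabp3, the heart-type fatty acid-binding protein, was level between the regions in summed counts. It had 90.7 CPM (86.9 to 94.6) in medial and 90.2 CPM (86.3 to 94.1) in lateral cells, a log2 ratio of 0.01 (-0.08 to 0.10). At 4000 UMIs, 30.1% of medial and 26.9% of lateral cells had a UMI, while at 2400 UMIs the shares were 16.6% and 17.5%. No order of the regions is read from shares that turn with depth.

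Plin2, the perilipin found on lipid droplets of most cell types, had 429 CPM (420 to 437) in medial and 411 CPM (402 to 419) in lateral cells. The log2 ratio was 0.06 (0.02 to 0.10), so that Plin2 was slightly higher in the medial library, opposite to Lpl and Fabp5. With cells thinned to 4000 UMIs the Plin2 log2 ratio was 0.06 (-0.006 to 0.13). Without cluster 2, described below, it was 0.03 (-0.01 to 0.08). Both of these intervals held no difference. A Plin2 UMI was found in 75.5% of medial and 72.7% of lateral cells at 4000 UMIs. Plin3, a perilipin that moves from the cytosol onto nascent droplets, had 37.9 CPM (35.5 to 40.5) in medial and 38.6 CPM (36.1 to 41.2) in lateral cells. Its log2 ratio was -0.03 (-0.16 to 0.11), and 13.6% of medial and 13.8% of lateral cells had a UMI at 4000.

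Pltp was near the floor of the assay. It had 128 UMIs in medial and 114 UMIs in lateral cells, or 5.46 CPM (4.56 to 6.49) and 4.95 CPM (4.08 to 5.94). The log2 ratio was 0.14 (-0.23 to 0.52), so a difference between the regions was not detectable at this depth. At 4000 UMIs, 2.12% of medial and 1.91% of lateral cells had a Pltp UMI, below the 4.19% and 4.84% with a UMI of Mbp, a myelin transcript that microglia do not make. The Pltp shares are therefore read as background. The shares of the other 5 genes lay above those of Mbp, but these data hold no cell type that lacks those genes to set beside them.

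**Figure D2:**
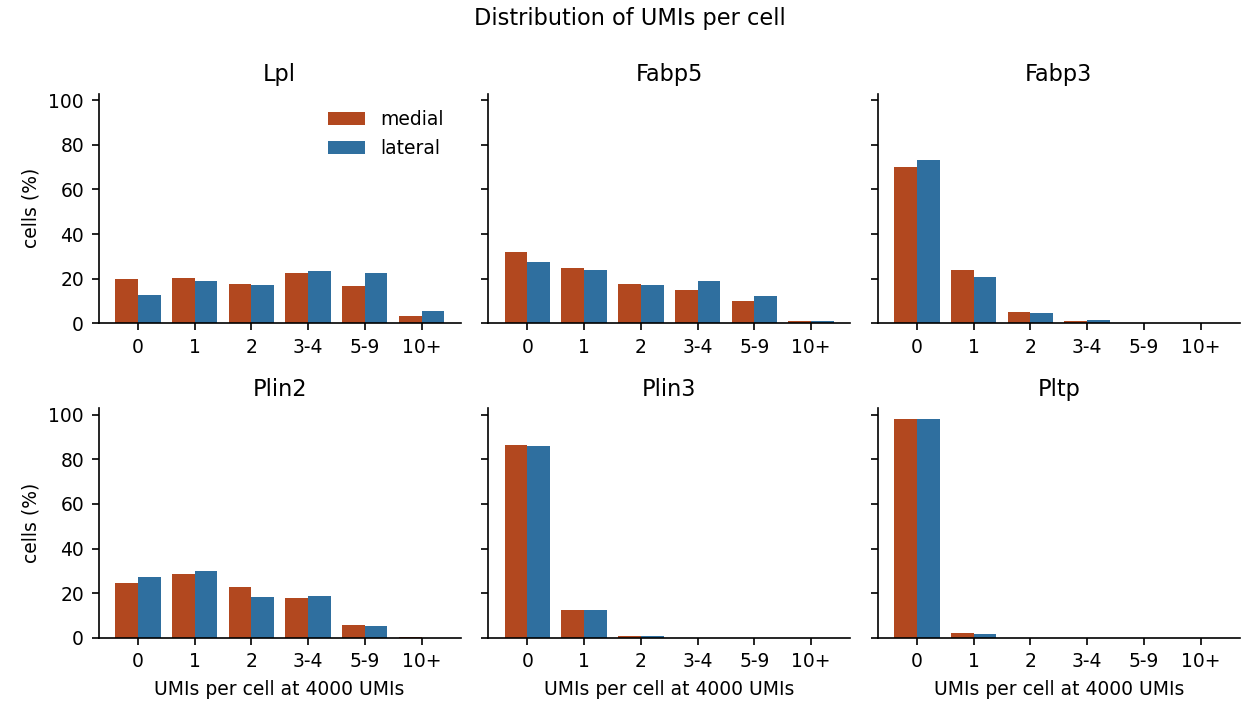
Percent of cells by UMIs of each gene, after thinning each cell to 4000 UMIs, in 1983 medial cells (left bars) and 2047 lateral cells (right bars). Lpl had no UMI in 19.7% of medial and 12.5% of lateral cells, whereas Pltp had none in 97.9% and 98.1%.

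The genes differed in how unevenly cells carried them. The Fano factor, the variance of UMIs per cell over their mean and 1 for pure counting noise, was 2.85 in medial and 2.80 in lateral cells for Lpl. For Fabp5 it was 2.59 and 2.28, and for Plin2 1.49 and 1.54. Fabp3 stood at 1.16 and 1.24. Plin3 stood at 1.01 and 1.02, but with means of 0.146 and 0.149 UMIs per cell the factor would lie near 1 even if cells differed. This factor grows with a gene's level, so it does not rank the genes. The coefficient of variation beyond counting noise was 0.819 in medial and 0.728 in lateral cells for Lpl, and 0.930 and 0.790 for Fabp5. For Fabp3 this coefficient was 0.649 and 0.838, for Plin2 0.537 and 0.579, and for Plin3 0.202 and 0.374. The 5% of cells with most Lpl held 20.1% of medial and 17.9% of lateral Lpl UMIs, and for Fabp5 these shares were 22.5% and 19.9%.

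Cells of both libraries fell into 9 clusters, all with microglial markers, and here described by their leading genes. The grouping left out the 6 genes and all genes of the 8 lipid pathway lists given below, Apoe among them. Cluster 1 led with Crybb1 and Folr2, cluster 2 with Abhd2 and Slc39a1 and the lowest median depth (5668 UMIs), and cluster 3 with the MHC class II genes H2-Eb1 and H2-Aa. Cluster 4 led with Cd5l, Ms4a7, Gpnmb and Spp1, and cluster 5 with Fos and Egr1. Clusters 6, 7 and 8 led with the cell cycle or replication genes Prc1, Ung and Ccnb2, and cluster 9, of 63 cells, with the interferon-induced Ifit3 and Rsad2. Cluster 3 held 20.4% of medial and 12.5% of lateral cells, and cluster 4 held 12.9% and 16.2%. Levels by cluster are descriptions, with no test.

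Lpl was lower in medial than in lateral cells in 9 of 9 clusters, with an interval below a ratio of 1 in 7 of them. Its widest gap was in cluster 8, at 657 CPM in medial and 1039 CPM in lateral cells. Its narrowest was in cluster 7, at 726 CPM in medial and 770 CPM in lateral cells, where the interval of the log2 ratio ran from -0.20 to 0.04. Among clusters Lpl varied little, by 1.41-fold from lowest to highest in the medial and 1.46-fold in the lateral library.

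Fabp5 was unevenly spread over clusters. In cluster 4, whose leading genes include Gpnmb and Spp1, it reached 841 CPM in medial and 801 CPM in lateral cells. Its lowest medial level was 339 CPM, in the Fos and Egr1 cluster, and its lowest lateral level was 338 CPM, in cluster 6. Fabp5 was lower in medial cells in 6 of 9 clusters, with an interval below a ratio of 1 in 5 and above it in 1. Its log2 ratio in cluster 4 was 0.07 (-0.01 to 0.15), while Lpl in the same cluster had 742 CPM in medial and 878 CPM in lateral cells.

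Fabp3 was highest in the interferon cluster 9, at 172 CPM (136 to 215) in medial and 241 CPM (187 to 306) in lateral cells. It was lowest in the cycling cluster 6, at 59.4 CPM in medial and 57.9 CPM in lateral cells. Cluster 9 held only 37 medial and 26 lateral cells. Plin2 was highest in cluster 4 in the medial library, at 584 CPM, and in cluster 8 in the lateral library, at 505 CPM. In cluster 2 Plin2 had 394 CPM in medial and 329 CPM in lateral cells, and in cluster 3 it had 347 CPM and 380 CPM, so its small regional difference was not of 1 direction across clusters. Plin3 ran from 29.0 CPM in cluster 9 to 50.2 CPM in cluster 4 of the medial library, and from 28.0 CPM in cluster 2 to 50.8 CPM in cluster 5 of the lateral library. In no cluster did the interval of its ratio, or that of Fabp3 or Pltp, exclude equal levels in the regions.

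**Figure D3:**
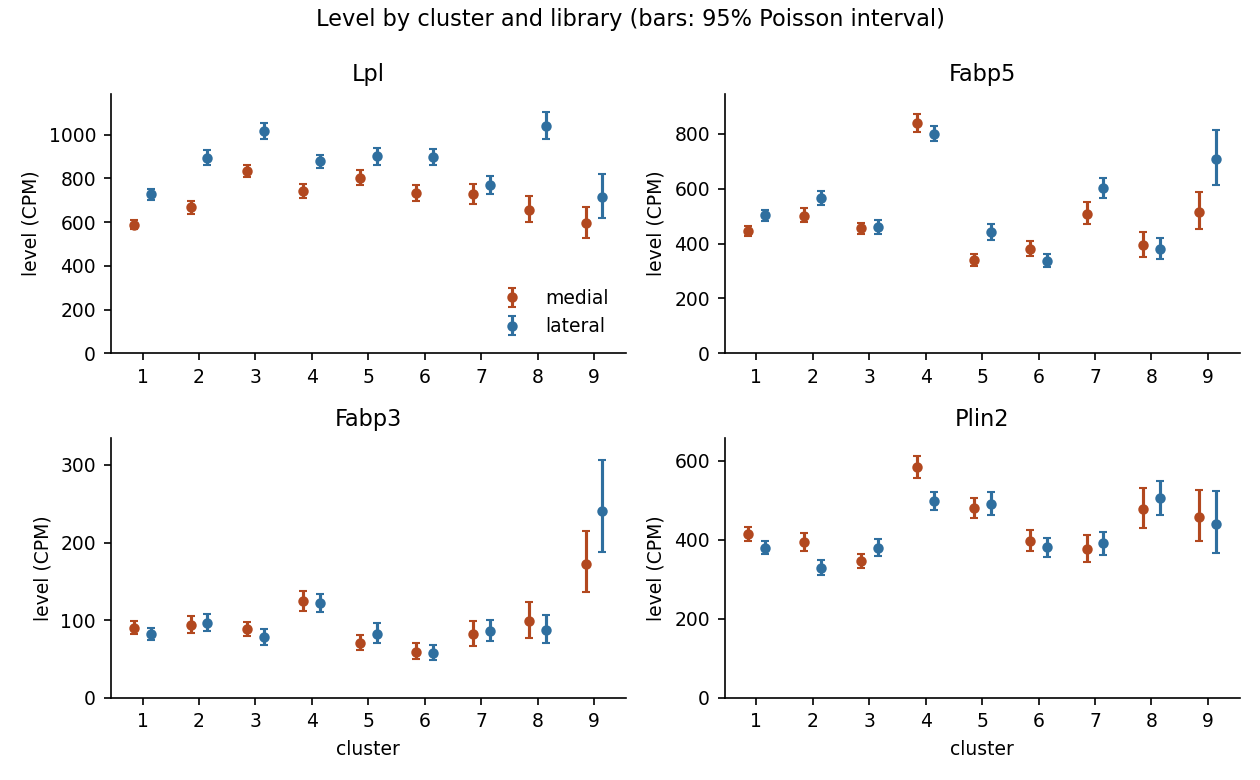
Level in CPM of Lpl, Fabp5, Fabp3 and Plin2 in each of 9 clusters, medial (left point) and lateral (right point), with 95% Poisson intervals and axes that start at 0. Lpl was lower in medial cells in all 9 clusters, and Fabp5 was highest in cluster 4 of both libraries.

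To place the genes along known microglial programmes, cells of each library were ranked by their UMIs in a gene list and split into quintiles; a quintile is a range of cells and not a type. None of the lists holds any of the 6 genes. Along a damage-associated list with Spp1, Gpnmb, Lgals3 and Igf1, Fabp5 was higher in the top quintile of both libraries. It had 764 CPM in the top and 213 CPM in the bottom quintile of medial cells, and 836 CPM and 248 CPM in those of lateral cells. These are folds of 3.59 and 3.37, and without Spp1, the list's most abundant gene, they were 3.33 and 3.06. Fabp5 is itself a known gene of this programme.

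Lpl, Fabp3 and Plin2 were also higher at the top of this list, with intervals above a ratio of 1. Intervals of quintiles and clusters leave out the variation between cells that Fano factors above 1 show, so they are too narrow. Lpl was 1.68-fold higher in the top than in the bottom quintile of medial cells and 1.41-fold in lateral cells. Fabp3 had folds of 1.76 and 2.66, and Plin2 of 1.63 and 1.61. For Plin3 the folds of 1.19 and 1.31 came with intervals that held no difference. Pltp had a fold of 1.25 in medial cells, with a log2 interval of -1.89 to 2.66. In lateral cells it had 16 UMIs in the top and 3 in the bottom quintile, a fold of 5.35 with a log2 interval of 0.61 to 4.84. The list itself stood at 131 UMIs per 10000 in medial and 150 per 10000 in lateral cells, while 3 of its 12 genes (Gpnmb, Ch25h and Itgax) were higher and 1 (Igf1) was lower in medial cells past the fold.

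Along a list of homeostatic genes such as P2ry12 and Tmem119 the order turned for 3 genes. Fabp5 in the top quintile was 0.454 times that of the bottom quintile in medial and 0.559 times in lateral cells. For Lpl these ratios were 0.696 and 0.713, and for Fabp3 0.666 and 0.621. Plin2 was flat, at 1.01 and 0.942, with intervals that held no difference. Without Fcrls, the most abundant gene of the homeostatic list, Plin2 stood at 0.815 and 0.790, so the flat values hold only with that gene.

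**Figure D4:**
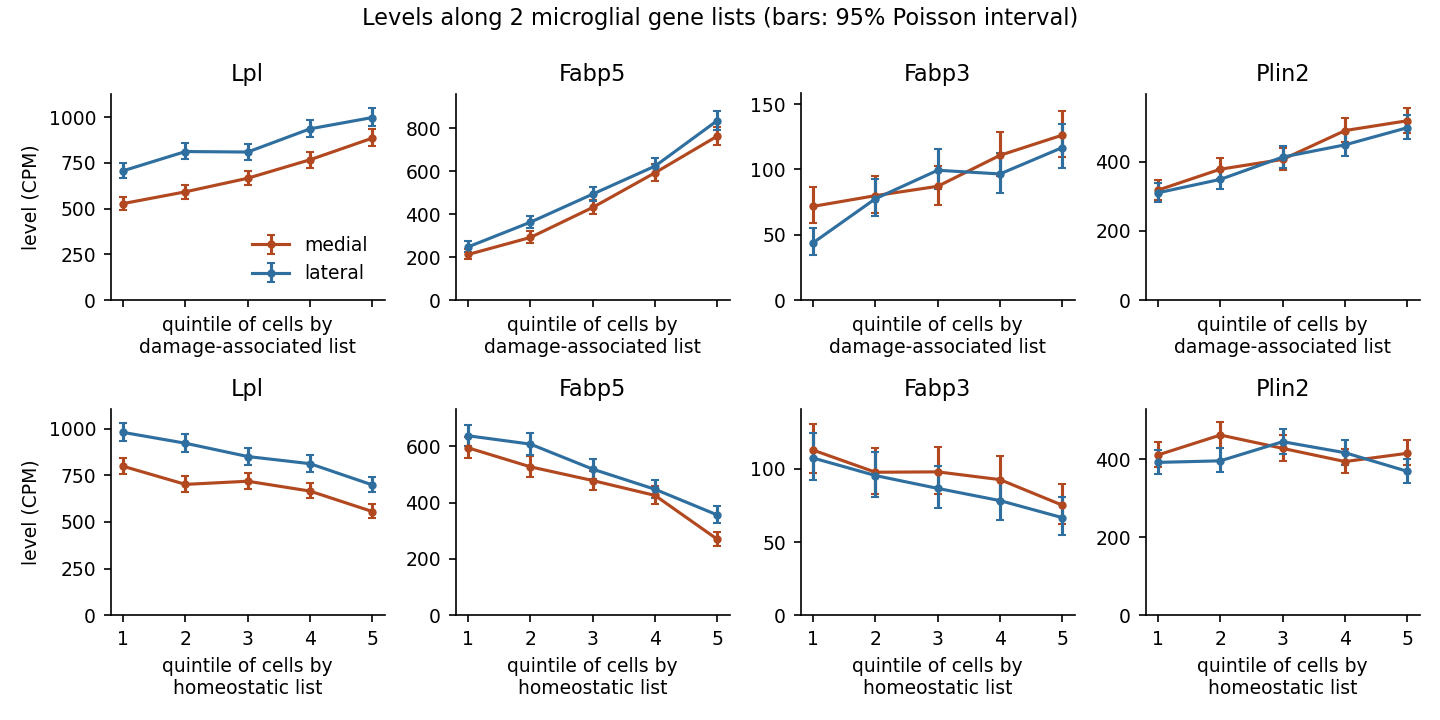
Level in CPM of Lpl, Fabp5, Fabp3 and Plin2 in quintiles of cells ranked by UMIs in the damage-associated list (top row) and the homeostatic list (bottom row), at 4000 UMIs per cell, with 95% Poisson intervals. Fabp5 climbs 3.59-fold in medial and 3.37-fold in lateral cells along the damage-associated list, and the medial Lpl points lie below the lateral ones throughout.

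Lpl and Fabp5 went opposite ways along the immediate early list. Lpl was 1.2-fold higher in the top than in the bottom quintile of medial cells and 1.36-fold in lateral cells. Fabp5 was 0.442 times its bottom level in medial and 0.641 times in lateral cells. Along the glycolysis and hypoxia list, with Gapdh, Pkm and Ldha, 4 genes were higher in the top quintile of both libraries with intervals above a ratio of 1. Lpl had folds of 1.37 in medial and 1.32 in lateral cells, Fabp5 1.77 and 1.49, Fabp3 1.69 and 1.32, and Plin2 1.37 and 1.24. The Fabp3 fold in lateral cells, without Gapdh, was 1.19 with an interval that held no difference.

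Along interferon response genes Fabp3 was 1.52-fold higher in the top than in the bottom quintile of medial cells and 1.58-fold in lateral cells, and Lpl was at 0.994 and 1.13. Fabp5 had folds of 1.15 and 1.16 and Plin2 of 1.16 and 1.09, and the interval of lateral Plin2 held no difference. Pltp had folds of 1.58 and 3.01, with intervals that held no difference. Without Bst2, the list's most abundant gene, Fabp5 stood at 0.915 in medial and 1.06 in lateral cells, with intervals that held no difference. Plin2 then stood at 1.08 in medial cells, where the interval held no difference, and at 1.14 in lateral cells, where it did not. Along MHC class II genes Lpl was slightly higher at the top, with folds of 1.12 and 1.11. Without Cd74, the list's most abundant gene, the Lpl folds were 1.15 and 1.07, and the lateral interval held no difference. Along the full list Fabp5 was lower at the top, at 0.780 and 0.731, and so was Plin2, at 0.797 and 0.823.

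Along the cholesterol efflux list Plin2 was 1.35-fold higher in the top quintile of medial cells and 1.69-fold in lateral cells. Pltp had 20 UMIs in the top and 4 in the bottom quintile of medial cells, a fold of 5.01 with a log2 interval of 0.75 to 4.33. In lateral cells it had 18 and 3 UMIs, a fold of 6.01 with a log2 interval of 0.81 to 4.99. Plin3 was at 0.887 times in medial and 2.13 times in lateral cells. Apoe, the lipoprotein gene, made up 97.8% of this list's UMIs. Without Apoe, Plin2 stood at 0.990 in medial and 1.07 in lateral cells and Pltp at 1.23 and 1.5, with intervals that held no difference. The gradient is therefore one of Apoe and is not read as one of the other genes in the list.

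**Figure D5:**
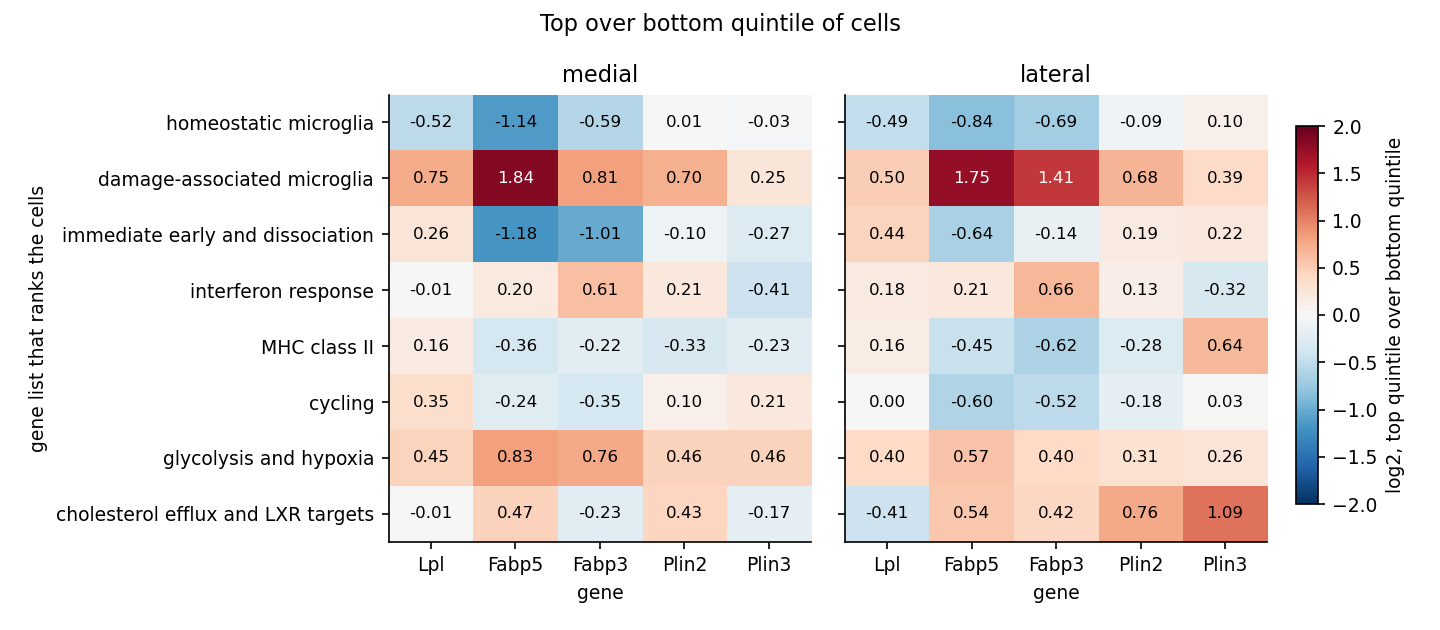
Log2 of the level in the top quintile over that in the bottom quintile of cells, for 5 genes (columns) and 8 gene lists that rank the cells (rows), in the medial (left) and lateral (right) library; red is higher in the top quintile. Fabp5 along the damage-associated list has the highest value in both libraries, 1.84 in medial and 1.75 in lateral cells.

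The lower Lpl of the medial library recurred along the 8 rankings. In 39 of 40 quintiles, made from the same cells ranked in 8 ways, medial cells had less Lpl than lateral cells, and in 37 of 40 less Fabp5. Plin2 and Fabp3 were each higher in medial cells in 31 of 40. All 40 quintiles use the same thinning to 4000 UMIs, at which the Fabp3 log2 ratio was 0.13 (-0.02 to 0.28). Over all cells without thinning it was 0.01, so the count for Fabp3 is not read as a regional difference. A cycling signature here means 3 or more UMIs in a cell, drawn from 2 or more genes of the cycling list. It was met by 34.9% of medial and 35.1% of lateral cells, and deeper cells can meet it more easily. The cell cycle or replication clusters were smaller: cluster 6 held 6.80% of medial and 8.28% of lateral cells. Cluster 7 held 4.32% and 5.89%, and cluster 8 held 3.94% and 4.59%. The signature is therefore not read as the share of dividing cells. Cells with the signature had 754 CPM of Lpl in the medial library against 685 CPM in its other cells. In the lateral library the values were 890 CPM in cycling and 846 CPM in other cells. Cycling cells were deeper, with medians of 13532 UMIs against 9475 in other medial cells and 11833 against 8634 in other lateral cells. At 4000 UMIs per cell, Lpl was 1.28-fold higher in the top than in the bottom quintile of the cycling list in medial cells, and at 861 CPM in both quintiles of lateral cells. Fabp5 had 483 CPM in medial cycling cells and 493 CPM in other medial cells, and 493 CPM and 572 CPM in those of the lateral library.

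Within single cells Lpl and Fabp5 were next to uncorrelated. Pearson's r of log counts at 4000 UMIs was 0.00084 over 1983 medial cells and 0.015 over 2047 lateral cells, although both genes followed the damage-associated list. Both UMIs were found in 54.9% of medial cells, where independence gives 54.8%. In lateral cells these were 63.7% and 63.6%. The highest of the 15 pairs were Fabp5 with Fabp3, at 0.13 in medial and 0.17 in lateral cells, and Fabp5 with Plin2, at 0.16 and 0.10. The median pair was at 0.020 and 0.018. Such weak values in sparse counts are given as a description and not as a finding.

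The genes most like each of the 6 were sought among 2564 genes, ranked by the lower of the r of the 2 libraries and up to 3 are given for each, from 0.15 up. Fabp5 was most like Cd63 (0.30 in medial, 0.29 in lateral cells), Spp1 (0.27 and 0.30) and Igf1 (0.29 and 0.27). Lpl was most like Tmsb4x (0.19 and 0.23), Ccl6 (0.17 and 0.23) and Capg (0.20 and 0.17). Plin2 was most like the lysosomal genes Ctsb (0.22 and 0.24), Cd68 (0.17 in both) and Ctsd (0.15 and 0.16). Fabp3, Plin3 and Pltp had no gene at 0.15. Cd63, Spp1, Igf1 and Cd68 belong to the damage-associated list.

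In the 8 lists of surrounding lipid pathway genes, 0 to 20% of the measured genes of a list passed the fold in either direction, against 14.9% of all genes. In the list of LPL cofactors, regulators and lipase relatives, 0 of 5 measured genes passed the fold either way (median log2 ratio -0.09). Lipa, the lysosomal acid lipase, had 130 CPM in medial and 140 CPM in lateral cells. Gpihbp1, which holds LPL on capillaries, was at 0 in both libraries. Of 9 uptake genes 1 was higher, the fatty acid transporter Slc27a1, with 14.7 CPM in medial and 11.7 CPM in lateral cells, and none was lower (median -0.13). Scarb2, a lysosomal membrane receptor, had 194 CPM in medial and 189 CPM in lateral cells.

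Of 5 other fatty acid and acyl-CoA binding genes 1 was lower, Fabp7, and none was higher (median -0.13). Fabp7 had 29 UMIs in medial and 84 UMIs in lateral cells. Scp2, a sterol carrier, had 178 CPM in medial and 196 CPM in lateral cells. None of 10 other droplet genes passed the fold (median -0.08); Aup1, a droplet and endoplasmic reticulum protein, had 126 CPM in medial and 132 CPM in lateral cells. Of 17 genes of triglyceride and sterol ester turnover 1 was higher, the hormone-sensitive lipase Lipe, with 17.5 CPM in medial and 14.1 CPM in lateral cells, and none was lower (median 0.02). Soat1, which esterifies cholesterol, had 91.0 CPM in medial and 98.8 CPM in lateral cells.

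Around Pltp, 1 of 5 measured genes of lipoprotein remodelling was higher past the fold and none was lower (median 0.20). This was Apoc1, with 346 CPM in medial and 241 CPM in lateral cells. Apoe had 47302 CPM in medial and 41178 CPM in lateral cells, a log2 ratio of 0.20. Of 15 genes of fatty acid oxidation 1 was lower, Etfdh, with 19.6 CPM in medial and 25.3 CPM in lateral cells, and none was higher (median -0.07). Etfb, another electron transfer gene of that pathway, had 105 CPM in both. Of 7 lipid-sensing nuclear receptors and coregulators 1 was higher, Esrra, with 33.6 CPM in medial and 28.0 CPM in lateral cells, and none was lower (median -0.01). Ncor1, a corepressor, had 122 CPM in medial and 126 CPM in lateral cells.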

How the data were processed

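Libraries were made with the 10x Genomics 3′ kit and read on a NextSeq 500, per the labels' protocols. The submitters' processing notes name Cell Ranger 2.0.1, STAR and mm10. The authors deposited raw UMI counts for 27998 genes and 737280 barcodes, in total 28660496 medial and 27955414 lateral UMIs. Here, cells had at least 2400 UMIs and at most 10% mt- UMIs; Scrublet marked 5 cells in each library, too few to count as working, and none was removed. Levels are counts per 1000000 UMIs (CPM) over summed cells, with exact Poisson intervals; ratios have exact conditional binomial and shares exact Clopper-Pearson intervals. Shares, quintiles and correlations used cells thinned to 4000 UMIs, leaving out 148 medial and 261 lateral cells. Clusters came from scanpy 1.11.5 (2000 variable genes, 30 components, 15 neighbours, Leiden resolution 0.6). TMM factors came from edgeR 4.0.16. The interval of the ratio and the fold call were tested on simulated Poisson counts, which hold no variation between cells or libraries. Quintiles, clusters and correlations were not tested in that way. The genes and lists were chosen with earlier results of these data known. Pathway genes are named where they have most UMIs of their list or pass a fold of 1.2, up to 2 each way.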

Additional observations from a re-analysis of the deposited data

How the results depend on the processing

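With 1 library per region, no variation between mice or preparations was measured, and counting intervals do not cover it. The log2 ratio, medial over lateral, was taken under 16 alternatives. These draw on the same 2 libraries and are not independent of each other. They include free RNA in place of cells, which is not a check on the cells. Leaving out the 5 cells per library that Scrublet marked is also among them and could hardly move a ratio. The log2 ratio kept its sign in 16 for Lpl (-0.34 to -0.24), Fabp5 (-0.21 to -0.05) and Plin2 (0.03 to 0.13). For Fabp3 it did so in 13, for Plin3 in 12 and for Pltp in 14. The Plin2 interval held no difference at 4000 UMIs, with cluster 2 left out and in free RNA. The reported intervals of Fabp3, Plin3 and Pltp held no difference, so a turned sign there could not count as a reversal. The causes of the moves below were not tested. Cycling cells below are those with the cycling signature, which deeper cells can meet more easily. Lpl moved to -0.24 with TMM scaling, -0.24 when centred on the median gene, -0.31 when cells were thinned to 4000 UMIs and -0.34 within ranges of the immediate early list. Fabp5 moved to -0.10 when centred, -0.082 at 2400 UMIs, -0.21 without cycling cells, -0.093 within ranges of the immediate early list and -0.053 within those of the damage-associated list. Fabp3 moved to 0.13 at 4000 UMIs, 0.155 within the immediate early and 0.29 within the damage-associated ranges. Plin2 moved to 0.13 without cycling cells and 0.11 within the damage-associated ranges, and Plin3 to -0.23 in free RNA. The count of genes lower past the fold was 0 with at least 5000 UMIs per cell, TMM scaling, centring, cluster 2 left out or a fold of 1.5; the count higher was 1 without cycling cells, 1 at a fold of 1.1 and 2 within the damage-associated ranges. At 2400 UMIs the shares of medial and lateral cells were 69.2% and 76.8% for Lpl, 54.2% and 59.5% for Fabp5, 16.6% and 17.5% for Fabp3, 59.4% and 54.5% for Plin2, 7.74% and 8.49% for Plin3, and 1.41% and 1.21% for Pltp. At Leiden resolution 0.3 the log2 range over clusters was 0.64 for Fabp5 and 0.46 for Plin2, against 1.19 and 0.57 at 0.6. Leaving out cluster 2, free RNA, the ranges of both lists and lists without their most abundant gene were chosen after seeing the data. No paired analysis was possible because each region has 1 library.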

Other observations

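Fabp7, the brain-type fatty acid-binding protein of astrocytes and neural progenitors, was far more abundant outside the cells than in them. It had 1.24 CPM in medial and 3.64 CPM in lateral cells, and 59.3 CPM and 128 CPM in free RNA of the same libraries. Its UMIs were scattered, with 28 medial and 80 lateral cells holding one and at most 2 and 3 in a single cell. The log2 ratio of -1.56 (-2.22 to -0.93) in cells has free RNA beside it that was also lower in the medial library; the part of free RNA in it was not tested.

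Lpl and Fabp5 differed in their balance between cells and free RNA. Lpl in cells was 1.32 times its level in free RNA in both libraries. Fabp5 was at 0.768 times in the medial and 0.784 times in the lateral library, and Plin2 at 0.916 and 0.930 times. The microglial receptor gene Cx3cr1 was at 1.91 and 2.02 times.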
